A study of Mus musculus with 24 samples.

Results

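The genes described here are 9 chemokines and 1 cytokine that fibroblasts can secrete: *Ccl2*, *Ccl5*, *Ccl7*, *Cxcl1*, *Cxcl5*, *Cxcl10*, *Cxcl12*, *Cxcl14*, *Cx3cl1* and *Il6*. Members are defined by symbol and not by a threshold on their values, each symbol matched a single Ensembl entry, and the 10 genes are 10 of the 47937 gene entries in the deposited counts table. All 10 passed a filter on low counts that left 18565 genes for testing. RNA-seq was performed on mouse embryonic fibroblasts (MEFs) in which the enzymes that methylate lysine 9 of histone H3, a mark of silent chromatin, were inactivated stepwise. There were 8 conditions with 3 libraries each.

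WT was a MEF line with conditional *Eset1* (*Setdb1*) alleles and a Cre recombinase inducible by tamoxifen, without 4-hydroxytamoxifen (4-OHT). *E1* was the same line after 4-OHT, which deletes *Eset1*. *E1 S1S2* carried frameshift mutations of *Suv39h1* and *Suv39h2* made with CRISPR/Cas9 and received 4-OHT, and *6KO1* was obtained from it by further mutation of *Eset2* (*Setdb2*), *G9a* and *Glp*. *E2* was a clone with mutated *Eset2* that still carried intact *Eset1* and had no 4-OHT, and *E1E2* was that clone after 4-OHT. Further mutation of *G9a* and *Glp* gave *E1E2 G9Gl*, and of *Suv39h1* and *Suv39h2* gave *6KO2*, both with 4-OHT. The inducible Cre and conditional alleles were common to all 8 conditions. Per the methods of the study, a construct with inducible Cre and puromycin resistance was introduced again after the CRISPR/Cas9 mutations. The lines were then kept in puromycin. The labels do not say which libraries this covers, and its effect cannot be told apart from that of the mutations. The treatment field of the labels names 4-OHT for every library, and WT and *E2* were taken as untreated because their titles mark them as controls. Each mutant line stood for a single clone, so that clone and mutation cannot be told apart. *E1* and *E1E2* differ from WT and *E2* by 4-OHT and by the deletion it induces, and these cannot be told apart. The methods of the study call the 3 libraries of a line biological replicates without saying how they were separated, and the p-values measure the spread between these libraries only.

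Chemokines are small secreted proteins that bind receptors on the surface of leukocytes and direct their migration. CC chemokines such as *Ccl2* and *Ccl7* attract monocytes, CXC chemokines with an ELR motif such as *Cxcl1* and *Cxcl5* attract neutrophils, and *Cxcl10* attracts activated T cells. Many of them are transcribed in fibroblasts after NF-kB or interferon signalling. *Cxcl12* and *Cxcl14* are made without such a stimulus in many tissues and are counted among the homeostatic chemokines. *Il6* encodes interleukin 6, which acts through the *Il6ra* and *Il6st* receptor chains and STAT3.

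The 250 bases upstream of the RefSeq start (GRCm38.p6) were available for 6 of the 10 genes and are shown for the 4 in which a searched motif was found, because the regulators that read these motifs are described with the results. Capitals mark matches to the NF-kB core (GGGA, any 2 bases, TTCC), the interferon response core (GAAA, any 2 bases, GAAA) or the AP-1 site (TGA, any base, TCA), searched on both strands. The *Cxcl1* window is chr5:90890995-90891244 on the plus strand, the *Cxcl10* window chr5:92348890-92349139 on the minus strand, the *Cxcl14* window chr13:56296552-56296801 on the minus strand and the *Il6* window chr5:30012864-30013113 on the plus strand.
Cxcl1: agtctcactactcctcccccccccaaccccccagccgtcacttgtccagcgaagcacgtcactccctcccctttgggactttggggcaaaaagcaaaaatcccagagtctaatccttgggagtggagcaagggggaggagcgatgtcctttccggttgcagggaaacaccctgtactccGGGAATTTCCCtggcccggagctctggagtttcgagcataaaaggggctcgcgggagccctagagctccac
Cxcl10: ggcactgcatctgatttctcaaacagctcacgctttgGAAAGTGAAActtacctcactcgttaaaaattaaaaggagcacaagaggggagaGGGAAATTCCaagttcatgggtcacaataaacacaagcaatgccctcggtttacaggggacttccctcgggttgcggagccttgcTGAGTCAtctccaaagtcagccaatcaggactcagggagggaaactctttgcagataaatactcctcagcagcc
Cxcl14: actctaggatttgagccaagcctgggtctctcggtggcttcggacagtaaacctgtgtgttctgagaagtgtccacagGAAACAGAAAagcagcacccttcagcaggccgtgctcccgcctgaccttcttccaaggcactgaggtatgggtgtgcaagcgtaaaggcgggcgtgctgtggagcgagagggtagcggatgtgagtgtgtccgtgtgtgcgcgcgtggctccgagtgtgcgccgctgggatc
Il6: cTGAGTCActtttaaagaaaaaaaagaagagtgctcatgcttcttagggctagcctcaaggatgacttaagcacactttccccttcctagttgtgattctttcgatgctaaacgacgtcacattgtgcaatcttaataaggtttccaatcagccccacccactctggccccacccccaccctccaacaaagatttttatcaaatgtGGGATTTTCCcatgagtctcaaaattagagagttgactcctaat
Counted from the start site, the NF-kB core lay at position -71 in *Cxcl1*, with an overlapping match on the opposite strand at -70, at -159 in *Cxcl10* and at -44 in *Il6*. An interferon response core was found at -213 in *Cxcl10* and at -172 in *Cxcl14*, and AP-1 sites at -74 in *Cxcl10* and at -249 in *Il6*. Of all 32851 RefSeq promoters, read from 250 bases before to 50 bases after the start, 1.47% held the NF-kB core, 3.44% the interferon response core and 7.81% the AP-1 site. The windows of *Cxcl12* and *Cx3cl1* held none of these letters, which says nothing on the binding of a factor. *Ccl2*, *Ccl5*, *Ccl7* and *Cxcl5* are named only.

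The libraries held 24736829 to 37419071 counts. *E2* replicate 2 stood apart by its low values. In it 94 of the 12666 genes with a mean log2 CPM of at least 1 were 2-fold or more below both other libraries of its condition, against at most 12 in any other library. Of the genes described here 7 were among the 12666 and 6 among the 94, and *Cxcl1*, *Ccl2*, *Ccl7* and *Cx3cl1* took ranks 2 to 5 of the 12666 by the size of this gap. *Cxcl5* and *Il6*, under that expression limit, were also lower in this library, by 5.19 and 1.44 on the log2 scale. *Setdb2*, the gene mutated in this clone, did not separate the library: it was at 265, 297 and 315 normalized counts in *E2* replicates 1, 2 and 3, against 714 to 816 in WT. The fold changes and calls of the 10 genes in *E2* are therefore given with and without this library. Of the 10 genes 8 were 2-fold or more lower in it. For these, larger fold changes and a smaller spread without it follow from leaving it out and are not added support. The same holds for other genes that were low in this library. WT replicate 2 also differed from the rest of its condition. A chi-square per gene against counting noise was 62.8 against WT replicate 1 and 52.5 against WT replicate 3. It was 4.72 between WT replicates 1 and 3, and 16 and 17 for *E2* replicate 2. WT replicate 2 held the highest WT counts of *Ccl2*, *Ccl7*, *Cxcl1* and *Cxcl10*, and it enters every comparison with WT. The reason was not tested. Normalized counts are counts scaled by the TMM-adjusted library size to a common depth, values are mean ± SD (n = 3) unless stated, and a difference was called when means differed 2-fold or more with an adjusted p no higher than 0.01 in edgeR's quasi-likelihood test with Benjamini-Hochberg adjustment. In bulk RNA, fewer cells of a kind and less RNA per cell cannot be told apart.

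The MEF label was compared with marker genes. In WT 9 of 10 fibroblast markers were detected and summed to 166146 to 211385 normalized counts, with *Lum* at 0. Of 8 macrophage and leukocyte markers, *Ptprc*, *Adgre1*, *Itgam*, *Lyz2* and *Fcgr1* were at 0 in all 3 WT libraries and the list summed to 155 to 170.3. Its sum was highest in *E1E2 G9Gl* (786 to 846) and *6KO1* (672 to 724), lower in *6KO2* (237 to 281) and *E1E2* (189 to 241), and lowest in *E2* (122 to 148), with *Adgre1* at 0 in every condition. Of its 6 tested genes 5 were called higher in *6KO1*, 4 in *6KO2*, 4 in *E1E2 G9Gl*, 1 in *E1E2* and 0 in *E2*. None was lower there. Over all genes 20.6%, 15.3%, 16.8%, 5.51% and 2.9% were higher, in this order. Markers silent in WT passed the filter only through conditions in which they were higher, so these counts are a description. The part of the leukocyte markers in the values below was not tested. *Ccl2*, *Ccl7* and *Cxcl1* overlapped WT in *E1E2 G9Gl* and were above WT in *6KO1*, whereas *Il6* and *Cxcl5* were above WT in both.

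Ranked per kilobase of exon, *Ccl2* was the most abundant of the genes in WT at 1352 normalized counts per kilobase, followed by *Cxcl10* at 553 and *Ccl7* at 180.3. *Cxcl14* at 153, *Ccl5* at 124 and *Cxcl12* at 118 formed the middle of the order, *Cxcl1* at 29.3 and *Cx3cl1* at 29.2 were lower and had nearly equal means, and *Cxcl5* at 2.27 and *Il6* at 0.406 were close to the limit of detection. In *E1E2* the level of *Ccl2* was 10535 per kilobase, that of *Cxcl10* 4924, that of *Ccl5* 1241 and that of *Cxcl1* 868, whereas *Cxcl14* was at 0.923. *Cxcl14* thus went from the fourth place of the 10 genes in WT to the last in *E1E2*.

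**Figure D1:**
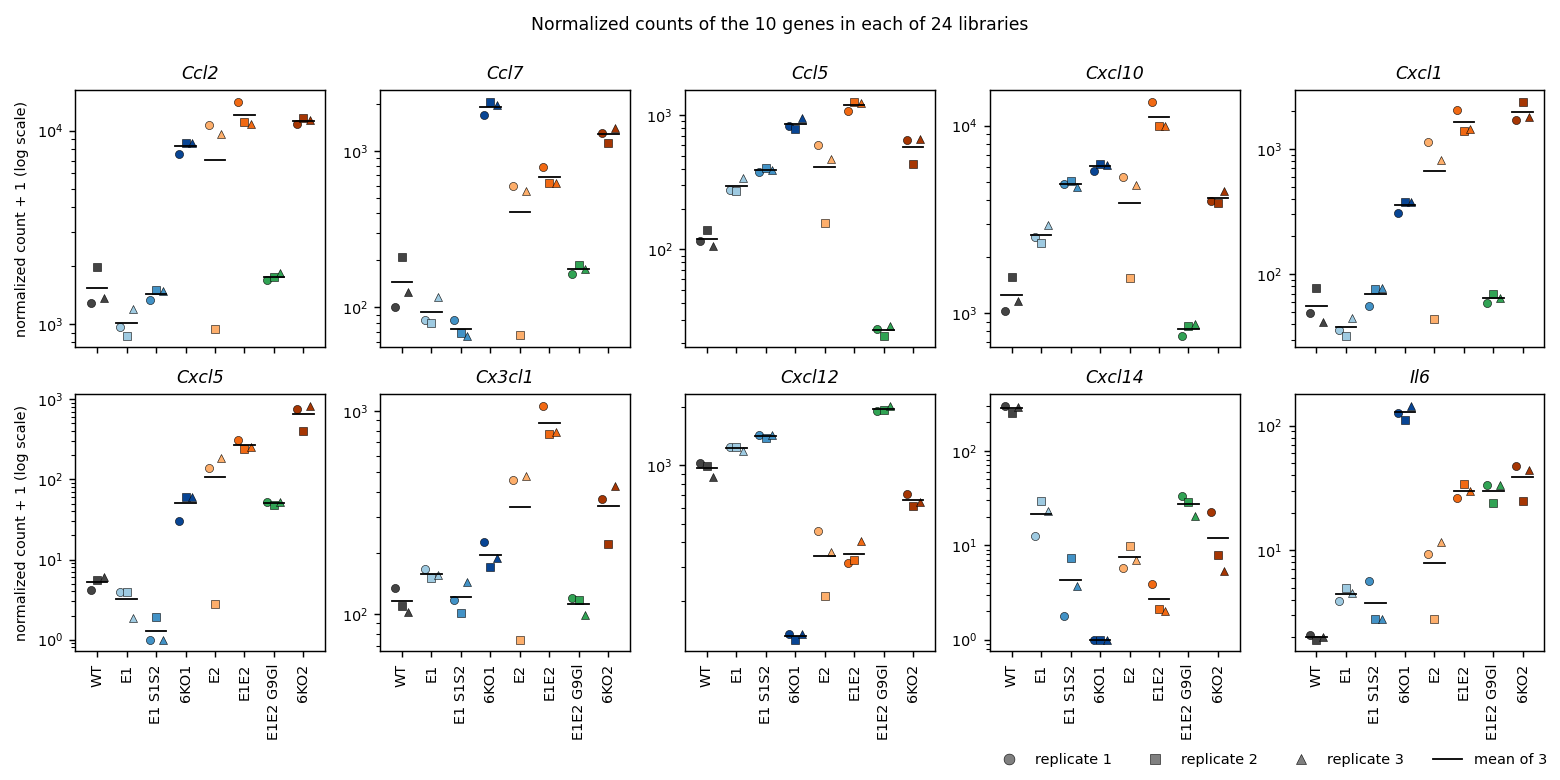
Normalized counts plus 1 (log axis) of the 10 genes in each of the 24 libraries, with marker shapes for replicates 1, 2 and 3 and a bar for the mean of 3. The *E2* replicate 2 library lies between 42.7 and 1537 for *Cxcl1*, *Ccl2* and *Cxcl10*, near WT, while the other *E2* libraries lie well above it.

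The first question was how each condition differed from WT. In *E1*, *Ccl5* and *Cxcl10* were higher and *Cxcl14* lower than in WT, so that 2 of the 10 genes were called higher and 1 lower, where 2.27% of all tested genes were called higher and 1.99% lower. In *E1 S1S2* the same 3 genes were called, again 2 higher and 1 lower, with 6.65% and 5.11% of all genes. The *E2* clone had 8 genes higher and 2 lower (2.9% and 3.21% of all genes), and *E1E2* the same 8 higher and the same 2 lower (5.51% and 3.22%). The 8 were *Ccl2*, *Ccl5*, *Ccl7*, *Cxcl1*, *Cxcl5*, *Cxcl10*, *Cx3cl1* and *Il6*, and the 2 were *Cxcl12* and *Cxcl14*. In *E2* the count of higher genes was 5 without *E2* replicate 1, *E2* replicate 3 or WT replicate 3, and 0 when the 6 libraries of *E2* and WT were fitted alone. In *E1E2 G9Gl* only *Il6*, *Cxcl5* and *Cxcl12* were higher and *Ccl5* and *Cxcl14* lower, which is 3 and 2 genes against 16.8% and 8.41% of all genes, and 1 higher gene without WT replicate 3. The compound mutants *6KO1* and *6KO2* had 7 genes higher and 2 lower (20.6% and 10.2% of all genes) and 8 higher and 1 lower (15.3% and 5.39%), respectively. The median log2 fold change of the 10 genes was 3.06 in *E1E2*, 2.58 in *6KO2*, 2.55 in *6KO1*, 1.69 in *E2* (2.09 without replicate 2) and 0.19 in *E1E2 G9Gl*, while that of all tested genes was between -0.013 and 0.061 in these comparisons. The *6KO1* median is the same with *Cxcl14* placed at its bound, given below. All 7 comparisons share the WT libraries.

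**Figure D2:**
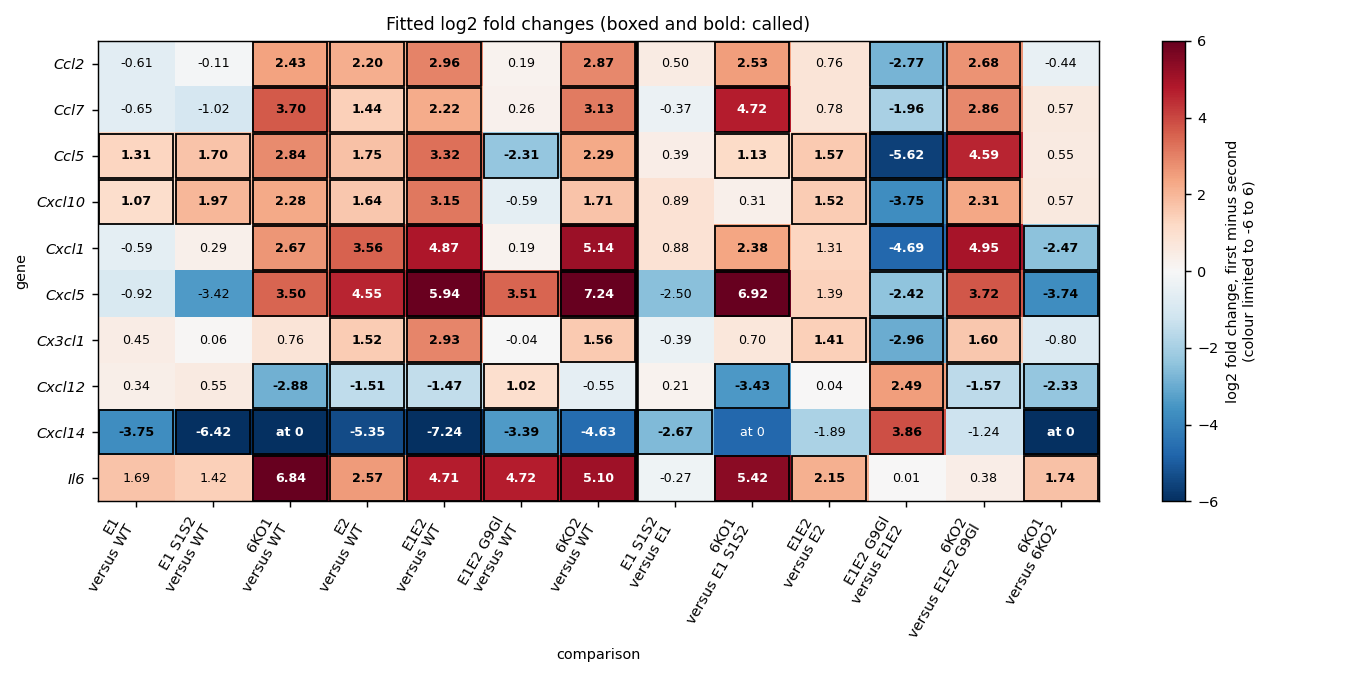
Log2 fold changes of the 10 genes (rows) in 13 comparisons (columns), colour limited to the range from -6 to 6, with a box around each called difference. *Cxcl14* is blue in all 7 comparisons with WT, and *E1E2 G9Gl* against *E1E2* is blue for 7 genes. Cells marked "at 0" are *Cxcl14* in *6KO1*, where no count was found.

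*Ccl2* and *Ccl7* encode ligands of CCR2 that recruit monocytes, and they lie next to each other on the plus strand of chromosome 11 (GRCm38 82035571 to 82037453 and 82045712 to 82047525). *Ccl2* was at 1274, 1976 and 1366 normalized counts in WT, at 7558, 8619 and 8655 in *6KO1*, at 14092, 11026 and 10849 in *E1E2* and at 10782, 11585 and 11404 in *6KO2*. Each library of these mutants was above every WT library. The mean was 5.38 times that of WT in *6KO1* (log2 fold change 2.43, SE 0.44, edgeR adjusted p = 3.6e-05), 7.79 times in *E1E2* (2.96, SE 0.45, adjusted p = 1.2e-05) and 7.32 times in *6KO2* (2.87, SE 0.45, adjusted p = 7.8e-06). In *E1*, *E1 S1S2* and *E1E2 G9Gl* the libraries held between 868 and 1836 counts, inside or below the range of WT, and none of these was called (edgeR adjusted p = 0.373, 0.863 and 0.723).

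*Ccl7* held 99.4, 209 and 125 counts in WT, 1687, 2056 and 1950.4 in *6KO1*, 792, 626 and 623 in *E1E2* and 1295, 1120.1 and 1407 in *6KO2*. The highest values were those of *6KO1*, 13.1 times WT (log2 fold change 3.70, SE 0.41, edgeR adjusted p = 2.7e-08), and *Ccl7* and *Ccl2* thus did not keep a fixed ratio between lines. In *E1 S1S2* *Ccl7* was at 82.4, 67.4 and 65.2, below all WT libraries although the difference was not called. In *E1E2 G9Gl* it was at 162, 187 and 176, within the range of WT (log2 fold change 0.26, edgeR adjusted p = 0.634).

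In the *E2* clone, *Ccl2* was at 10652, 939 and 9649.7 and *Ccl7* at 596, 65.9 and 556. Replicate 2 was below every WT library for both genes, whereas replicates 1 and 3 were above them. With all 3 libraries the log2 fold change of *Ccl2* was 2.20 (SE 0.44, edgeR adjusted p = 0.00038), and without replicate 2 it was 2.72 (SE 0.14, adjusted p = 2.3e-12). For *Ccl7* it was 1.44 (SE 0.42, edgeR adjusted p = 0.00899) and 1.98 without that library (adjusted p = 5.2e-08). The *Ccl7* call in *E2* was kept in 8 of the 24 fits that left out 1 library each, and the *Ccl2* call in all 24. Without replicate 2 the log2 fold changes of *E2* against WT were 2.16 for *Ccl5*, 2.02 for *Cxcl10*, 2.02 for *Cx3cl1*, 5.19 for *Cxcl5*, 3.11 for *Il6*, -1.24 for *Cxcl12* and -5.68 for *Cxcl14*. All 10 genes were called in that fit in the same direction as with all libraries, which for the genes low in replicate 2 follows from leaving it out.

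**Figure D3:**
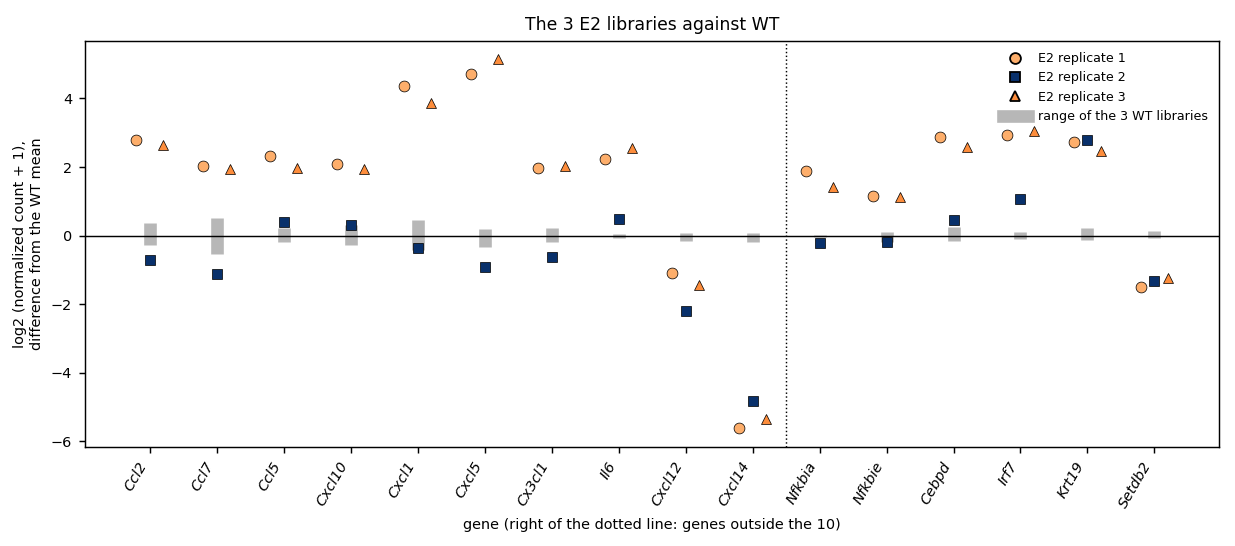
Difference of each *E2* library from the WT mean (log2 of normalized count plus 1) for the 10 genes and for *Nfkbia*, *Nfkbie*, *Cebpd*, *Irf7*, *Krt19* and *Setdb2*, with a grey bar for the range of the 3 WT libraries. Replicate 2 lies beside WT for most chemokines and with replicates 1 and 3 for *Setdb2*, *Krt19* and *Cxcl14*.

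The same library was low for genes outside the chemokines too. *Nfkbia*, the NF-kB inhibitor whose own transcription NF-kB induces, was at 3256, 758 and 2324 in the *E2* libraries against 873 ± 15.3 in WT. *Irf7*, an interferon-induced transcription factor, was at 139, 37.4 and 151 against 17.4 ± 1.43. *Krt19*, an epithelial keratin gene, was at 1134, 1187 and 942 against 169 ± 24.6, and there replicate 2 did not differ from the others. Why the library differs was not tested.

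*Ccl5* and *Cxcl10* encode chemokines that attract T cells, and both are well known as interferon-induced genes. *Ccl5* lies on the minus strand of chromosome 11 (83525778 to 83530518) and *Cxcl10* on the minus strand of chromosome 5 (92346638 to 92348889). *Ccl5* rose from 114, 138 and 105 counts in WT to 274, 271 and 340.4 in *E1*, 374, 405 and 387 in *E1 S1S2* and 826, 787 and 946 in *6KO1*. In the second series the *E2* libraries held 596, 156 and 473, those of *E1E2* 1080.0, 1258 and 1234, those of *E1E2 G9Gl* 24.6, 21.8 and 25.7, and those of *6KO2* 649.9, 431 and 665. Only the *E1E2 G9Gl* libraries were below WT, and every library of the other 6 mutants was above it. The largest rise was that of *E1E2*, with a log2 fold change of 3.32 (edgeR adjusted p = 2.5e-09), followed by *6KO1* with 2.84 (5.9e-09) and *6KO2* with 2.29 (3.7e-07). *E2* (1.75, edgeR adjusted p = 5.6e-05), *E1 S1S2* (1.70, 3.3e-05) and *E1* (1.31, 0.00225) rose less, and *E1E2 G9Gl* fell (-2.31, 8.3e-05).

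*Cxcl10* was at 1030.3, 1552 and 1153 in WT and rose to 2538, 2366 and 2956 in *E1* and to 4858, 5045 and 4707 in *E1 S1S2*. It reached 13371, 9945 and 9948 in *E1E2*, the highest group, and 759, 848 and 870.5 in *E1E2 G9Gl*, the only group below WT in all 3 libraries. That fall was not called (log2 fold change -0.59, edgeR adjusted p = 0.0539), in contrast to the fall of *Ccl5*. The rise was called in *E1* (1.07, edgeR adjusted p = 0.00402), *E1 S1S2* (1.97, 1.3e-06), *E2* (1.64, 3.1e-05), *E1E2* (3.15, 2.7e-09) and *6KO2* (1.71, 5.5e-06), and in *6KO1* the mean was 4.86 times that of WT (log2 fold change 2.28). In *E1* the call of *Cxcl10* was close to both limits and was lost without WT replicate 1, WT replicate 3, *E1* replicate 1 or *E1* replicate 3 (log2 fold changes 0.95, 1.02, 1.10 and 0.98). That of *Ccl5* was lost on the adjusted p alone without WT replicate 3 (1.23, edgeR adjusted p = 0.0132) or *E1* replicate 3 (1.19, 0.0123). Exons of *Cxcl10* overlap those of *Art3* on the opposite strand by 133 bases, so that a small part of its reads is uncertain.

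*Cxcl1* and *Cxcl5* encode ELR chemokines that bind CXCR2 on neutrophils and lie in the same cluster on chromosome 5 (*Cxcl5* at 90759360 to 90761624 and *Cxcl1* at 90891241 to 90893115, both on the plus strand). *Cxcl1*, with the NF-kB core in its promoter shown above, was at 47.6, 76.1 and 40.8 in WT and at 31.4 to 75.9 in *E1* and *E1 S1S2*. It was at 307, 377 and 377 in *6KO1*, at 1139.6, 42.7 and 821 in *E2*, at 2027, 1401 and 1452 in *E1E2* and at 1698, 2375 and 1796 in *6KO2*. Apart from *E2* replicate 2, which lay within the WT range, these libraries were all above WT. The mean was 29.7 times WT in *E1E2* (log2 fold change 4.87, edgeR adjusted p = 6.4e-07), 35.7 times in *6KO2* (5.14, adjusted p = 1.2e-07) and 6.44 times in *6KO1* (2.67, adjusted p = 0.00057). In *E2* the log2 fold change was 3.56 with all libraries (edgeR adjusted p = 7.2e-05) and 4.14 without replicate 2 (2.7e-12). *E1E2 G9Gl*, at 57.8, 68.9 and 63, overlapped WT (log2 fold change 0.19, edgeR adjusted p = 0.855).

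*Cxcl5* was almost absent from WT at 3.17, 4.53 and 4.98 counts and reached 307, 242 and 256 in *E1E2* and 749, 404 and 826 in *6KO2*. Unlike *Cxcl1*, it was also above WT in *E1E2 G9Gl*, at 51.4, 47.1 and 51.4, a level that overlapped *6KO1* at 29.7, 59.6 and 59.2. The log2 fold changes against WT were 5.94 in *E1E2* (edgeR adjusted p = 1.6e-06), 7.24 in *6KO2* (1.1e-08), 3.51 in *E1E2 G9Gl* (0.00373), 3.50 in *6KO1* (0.00283) and 4.55 in *E2* (0.00029), where the libraries held 136, 1.78 and 184. In *E1* and *E1 S1S2* the counts were between 0 and 2.94, below every WT library, and no change was called.

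*Cx3cl1* encodes fractalkine, a membrane-bound chemokine with a mucin stalk that binds CX3CR1 on monocytes and is shed by ADAM10 and ADAM17. It lies at 94772009 to 94782427 on the plus strand of chromosome 8. Its WT libraries held 134, 109 and 102 counts and its *E1E2* libraries 1057, 772 and 786, 7.58 times the WT mean (log2 fold change 2.93, edgeR adjusted p = 1.3e-06). The *6KO2* libraries at 369, 220.2 and 424 and the *6KO1* libraries at 225, 169 and 188 were also all above WT, but only the first difference was called (log2 fold change 1.56, edgeR adjusted p = 0.00132, against 0.76, adjusted p = 0.0905). *E1*, *E1 S1S2* and *E1E2 G9Gl* lay between 97.7 and 165. In *E2* the gene was at 457, 73.9 and 475, with replicate 2 below WT (1.52, edgeR adjusted p = 0.00361). The sheddase genes *Adam10* and *Adam17* belonged to a list of 6 proteases that cut chemokines. Of these 1 was called higher and 0 lower in *E1E2*, *6KO1* and *6KO2*, where 5.51%, 20.6% and 15.3% of all genes were higher. That gene was *Mmp9* (log2 fold changes 2.13, 1.89 and 1.21), so that neither sheddase gene was called there.

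*Cxcl12* and *Cxcl14*, the homeostatic chemokines, moved the other way. *Cxcl12* encodes the ligand of CXCR4 that retains haematopoietic cells in their niche, and lies at 117168535 to 117181367 on the plus strand of chromosome 6. It was at 1024, 994 and 872 in WT and at 134, 125 and 134 in *6KO1*, 7.36 times lower (log2 fold change -2.88, edgeR adjusted p = 2.9e-13). In *E2* it was at 456, 211 and 357 and in *E1E2* at 312, 323 and 404, both below all WT libraries (log2 fold changes -1.51, edgeR adjusted p = 4.1e-08, and -1.47). The *6KO2* libraries at 711, 617 and 645 were below WT by less than 2-fold (log2 fold change -0.55, edgeR adjusted p = 0.00189). By contrast, in *E1E2 G9Gl* it was at 1905, 1920.4 and 2024, 2.02 times above WT (log2 fold change 1.02, edgeR adjusted p = 8.2e-07), and in *E1* and *E1 S1S2* at 1181 to 1425, above WT but not called.

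*Cxcl14* encodes a chemokine of skin and other epithelia and of stromal cells, and lies at 56288643 to 56296551 on the minus strand of chromosome 13. It was the gene that fell in all 7 mutants. The WT libraries held 297, 248 and 293 counts, *E1* 11.6, 28.4 and 21.8, *E1 S1S2* 0.777, 6.29 and 2.68, and *6KO1* 0, 0 and 0. With 0 in each *6KO1* library, the WT mean was at least 96-fold higher than the floor of 3 counts per library, 2.91 normalized counts. In the second series *E2* held 4.72, 8.9 and 5.9, *E1E2* 2.93, 1.1 and 1.03, *E1E2 G9Gl* 32.1, 27.5 and 19.3, and *6KO2* 21.6, 6.81 and 4.39. Every mutant library was below every WT library, and the highest, at 32.1, was one of *E1E2 G9Gl*. The log2 fold change was smallest for *E1E2 G9Gl* at -3.39 and *E1* at -3.75. It was -4.63 for *6KO2*, -5.35 for *E2*, -6.42 for *E1 S1S2* and -7.24 for *E1E2*. *E2*, which had no 4-OHT, thus had a lower level than *E1*, and *E2* replicate 2 was the highest of its 3 libraries for this gene.

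*Il6* was close to undetected in WT, with 3 counts over the 3 libraries (1.06, 0.906 and 0.996 normalized). It lies at 30013114 to 30019981 on the plus strand of chromosome 5. The *6KO1* libraries held 126, 111 and 143 normalized counts, a ratio of summed counts to WT of 128 with a 95% exact counting interval of 43.5 to 624. *E1E2* held 25.4, 33 and 28.7, *E1E2 G9Gl* 32.1, 23 and 32.1, and *6KO2* 46.2, 23.8 and 42.8, with ratios of 29.4 (9.72 to 145), 29.5 (9.73 to 146) and 38.6 (12.9 to 190). These intervals cover counting error only. These 3 conditions overlapped with each other and all lay above WT and below *6KO1*. edgeR gave adjusted p = 3e-13 for *6KO1*, 1.3e-07 for *E1E2*, 3.9e-08 for *E1E2 G9Gl* and 6e-09 for *6KO2*. The *E2* libraries held 8.27, 1.78 and 10.6, a ratio of 6.5 (1.9 to 34.4, edgeR adjusted p = 0.00787). *Il6* was therefore raised in *E1E2 G9Gl*, where *Ccl2*, *Ccl7* and *Cxcl1* overlapped WT. In *E1* and *E1 S1S2* it was at 1.79 to 4.66, with no call.

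The second question was what each further mutation did. From *E1* to *E1 S1S2* 0 of the 10 genes were called higher and 1 lower (4.31% and 3.74% of all genes). The lower gene was *Cxcl14*, and *Cxcl10* was higher in every *E1 S1S2* library than in any *E1* library without reaching 2-fold (log2 difference 0.89, edgeR adjusted p = 0.00607). From *E1 S1S2* to *6KO1* 6 genes were higher and 1 lower (16.3% and 5.02% of all genes). *Ccl7* rose 26.5 times, *Ccl2* 5.79 times (log2 difference 2.53, edgeR adjusted p = 3.2e-05), *Cxcl1* 5.18 times and *Ccl5* 2.2 times, while *Cxcl12* fell 10.8 times. *Il6* was at 1.79 to 4.66 in *E1 S1S2* and at 111 to 143 in *6KO1*. *Cxcl5* had 1 count over the *E1 S1S2* libraries and 164 over those of *6KO1*, a ratio of 173 with a counting interval of 30.6 to 6878. *Cxcl10* stayed at 5723, 6266 and 6175 against 4707 to 5045, and was not called.

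From *E2* to *E1E2*, the same clone without and with 4-OHT, 4 genes were called higher and 0 lower (2.32% and 0.657% of all genes). They were *Ccl5* (2.92 times), *Cxcl10* (2.85 times), *Cx3cl1* (2.6 times) and *Il6* (4.22 times). All 4 were compared with an *E2* mean that held the low replicate 2. Without it, *Cx3cl1* differed by 0.90 on the log2 scale instead of 1.41 and was no longer called, *Ccl2* differed by 0.24 (edgeR adjusted p = 0.316) instead of 0.76 (0.231), and *Ccl7* by 0.24 (0.443). *Ccl5* at 1.15, *Cxcl10* at 1.13 and *Il6* at 1.60 were still called (edgeR adjusted p = 8.5e-06, 5.1e-06 and 0.00209). When the 6 libraries of *E2* and *E1E2* were fitted alone, 1 of the 4 was called.

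Addition of the *G9a* and *Glp* mutations to *E1E2* gave the most extensive fall. In *E1E2 G9Gl* 7 of the 10 genes were lower than in *E1E2* and 2 were higher (6.78% and 14.8% of all genes), and the median log2 difference of the 10 genes was -2.60 against 0.0069 for all tested genes. *Ccl5* fell 49.5 times (log2 difference -5.62, SE 0.37, edgeR adjusted p = 5e-12), *Cxcl1* 25.7 times, *Cxcl10* 13.4 times (-3.75, adjusted p = 6.4e-11), *Cx3cl1* 7.83 times, *Ccl2* 6.83 times (-2.77, adjusted p = 1e-05), *Cxcl5* 5.37 times and *Ccl7* 3.89 times. For each of the 7, all 3 *E1E2 G9Gl* libraries were below all 3 *E1E2* libraries. *Cxcl12* rose 5.63 times and *Cxcl14* 15.6 times (3.86, edgeR adjusted p = 1.6e-05), and *Il6* differed by 0.0051 (adjusted p = 0.995).

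The last step, from *E1E2 G9Gl* to *6KO2*, turned this pattern back. There 7 genes were higher and 1 lower (7.19% and 9.12% of all genes). *Cxcl1* rose 30.9 times, *Ccl5* 24.2 times (log2 difference 4.59, edgeR adjusted p = 6e-10), *Cxcl5* 13.2 times, *Ccl7* 7.28 times, *Ccl2* 6.42 times (2.68, adjusted p = 2.3e-05), *Cxcl10* 4.95 times and *Cx3cl1* 3.04 times, and *Cxcl12* fell 2.97 times. These are the same 7 genes that fell in the step before, and both steps share the *E1E2 G9Gl* libraries, so the similarity of the lists is not an independent result.

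**Figure D4:**
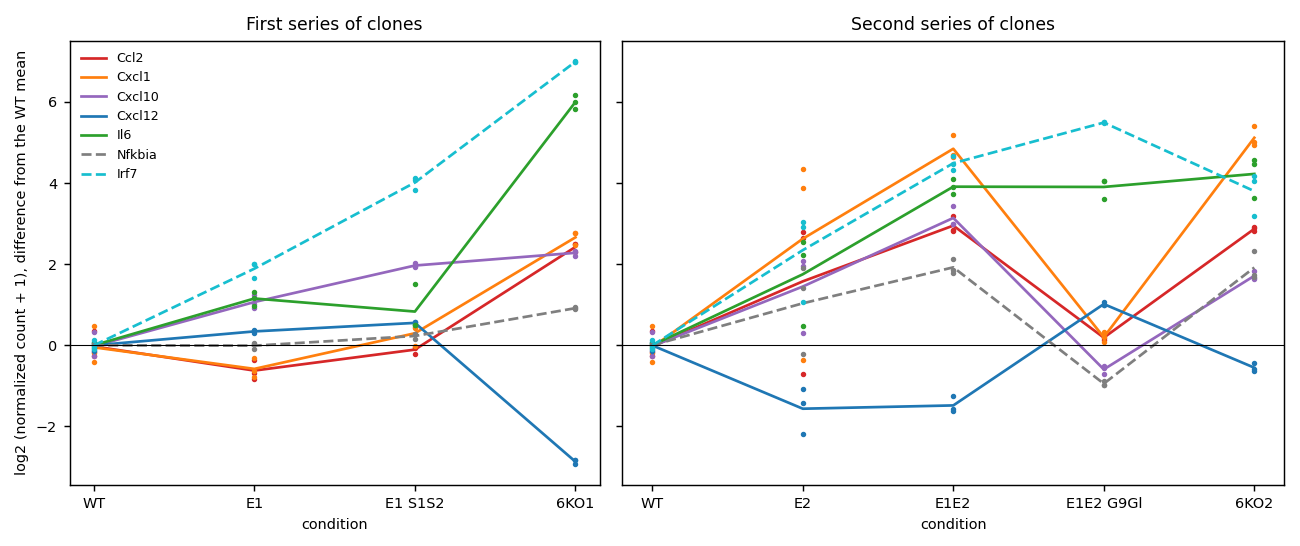
Group means (log scale) along the first series (WT, *E1*, *E1 S1S2*, *6KO1*) and the second series (WT, *E2*, *E1E2*, *E1E2 G9Gl*, *6KO2*) for *Ccl2*, *Cxcl1*, *Cxcl10*, *Cxcl12* and *Il6*, with *Nfkbia* and *Irf7* dashed. *Ccl2*, *Cxcl1*, *Cxcl10* and *Nfkbia* dip at *E1E2 G9Gl* while *Cxcl12* peaks there.

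The final lines carry mutations of the same 6 genes but were made in a different order from different clones. In *6KO1* 1 gene was higher than in *6KO2* and 4 were lower (9.77% and 7.1% of all genes). *Il6* was 3.37 times higher in *6KO1* (log2 difference 1.74, edgeR adjusted p = 2.4e-07). *Cxcl5* was 13.3 times, *Cxcl1* 5.53 times and *Cxcl12* 5.02 times higher in *6KO2*, and *Cxcl14* was at 21.6, 6.81 and 4.39 there against 0 in *6KO1*. *Ccl2*, *Ccl5*, *Ccl7*, *Cxcl10* and *Cx3cl1* were not called between the lines.

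Inactivation of *Suv39h1* and *Suv39h2* could be compared in 2 backgrounds, from *E1* to *E1 S1S2* and from *E1E2 G9Gl* to *6KO2*. The difference between these effects was called for 7 of the 10 genes, with 16.5% of all genes. It was -4.20 on the log2 scale for *Ccl5* (edgeR adjusted p = 1.5e-07), -4.07 for *Cxcl1* (0.00332), -3.23 for *Ccl7* (0.00028), -2.18 for *Ccl2* (0.005), -1.98 for *Cx3cl1* (0.00548), -1.42 for *Cxcl10* (0.00249) and 1.78 for *Cxcl12* (9.1e-08). A negative value means a larger rise in the *G9a Glp* background. The contrast uses the same *E1E2 G9Gl* libraries as the steps to and from that line, so it is not independent of them. Without *E1* replicate 3, 3 of the 6 negative differences remained called. The effect of 4-OHT, from WT to *E1* and from *E2* to *E1E2*, differed by background for 0 of the 10 genes (3.43% of all genes). Without *E2* replicate 2 the difference had an adjusted p of at most 0.01 for *Ccl2* (log2 difference -0.85, edgeR adjusted p = 0.00446) and *Cxcl12* (0.57, 0.00547), both under 2-fold.

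The neighbours of the genes on the chromosome were read from the same table. Beside *Ccl2* and *Ccl7* lie *Ccl11*, *Ccl12* and *Ccl8*, which attract eosinophils and monocytes. *Ccl11* and *Ccl12* had at most 3 raw counts in any library of WT, *E1E2*, *E1E2 G9Gl*, *6KO1* and *6KO2*, and *Ccl8* had 11, 6 and 13 in *6KO1* and 0 in WT. Close to *Ccl5*, *Ccl9* was at 481, 486 and 498 normalized counts in *E1E2 G9Gl* against 51.7 ± 27.5 in WT (log2 fold change 3.21, edgeR adjusted p = 2.6e-11), the condition in which *Ccl5* was lowest. *Ccl6* was also highest in *E1E2 G9Gl* and *6KO2*, with means of 71.5 and 90.6 against 2 in WT. Beside *Cxcl1*, *Cxcl2*, which encodes another neutrophil ligand, was at a mean of 41 in *E1E2*, 50.6 in *6KO2* and 0.811 in *E1E2 G9Gl* and at 0 in WT. *Cxcl11*, next to *Cxcl10* and a ligand of the same receptor, rose in *6KO1* (log2 fold change 5.90, edgeR adjusted p = 1.2e-09) and *E1E2* (4.29, 7.8e-06) and was lower in *E1E2 G9Gl* than in *E1E2* (-3.65, 1.5e-05).

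**Figure D5:**
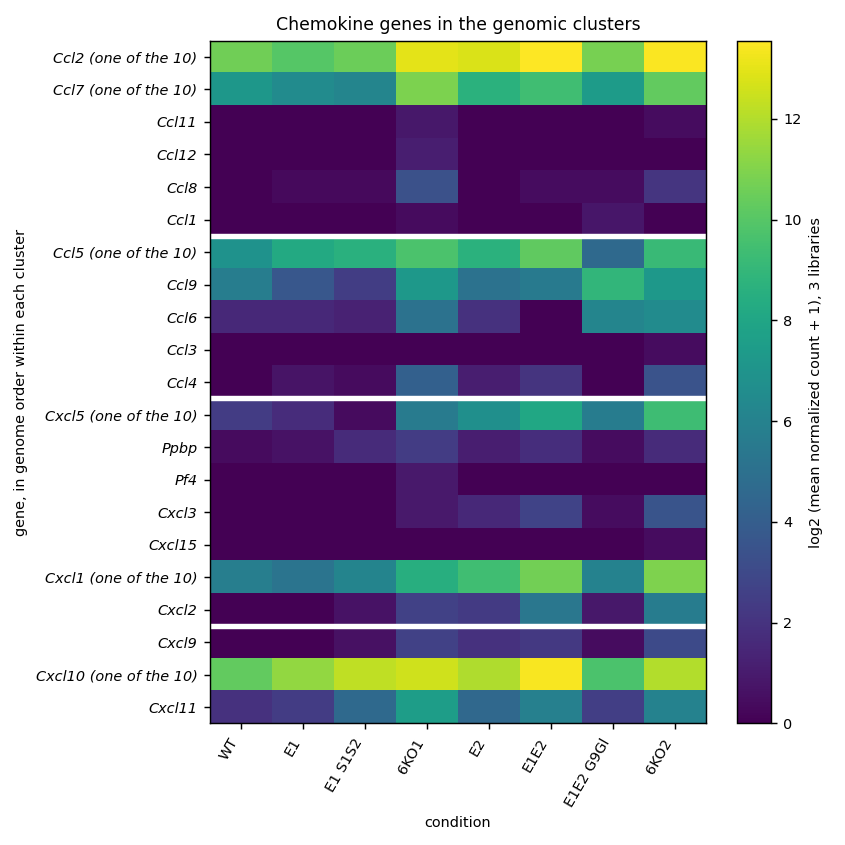
Mean normalized count plus 1 (log2 colour scale) of the chemokine genes in 4 chromosomal clusters, in genome order, by condition. *Ccl2* and *Ccl7* are high beside near-empty *Ccl11*, *Ccl12* and *Ccl8*, and *Ccl9* and *Ccl5* differ in *E1E2 G9Gl*.

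Of 29 other chemokine ligand genes 10 passed the filter. Of these 7 were higher in *6KO1*, 7 in *6KO2*, 6 in *E1E2*, 4 in *E1E2 G9Gl* and 2 in *E2*. Over all genes 20.6%, 15.3%, 5.51%, 16.8% and 2.9% were higher, in this order. Without *E2* replicate 2, 11 ligands were tested and 3 were higher in *E2*. Ligands that are silent in WT passed the filter only through a condition in which they were high, so these counts are a description of the 10. *Ccl20*, which attracts cells through CCR6, had 3 counts over the WT libraries and was at 1137, 782 and 1179.9 normalized counts in *6KO2* (log2 fold change 9.87, edgeR adjusted p = 3.3e-13). Receptors were largely missing: only 3 of 13 receptor genes passed the filter, and *Ccr1*, *Ccr3* and *Cxcr3* were at 0 in all libraries. *Ackr3*, the scavenging receptor of *Cxcl12*, fell in 5 of the 7 mutants, with log2 fold changes of -4.79 in *E1E2 G9Gl*, -4.45 in *6KO1*, -2.88 in *6KO2*, -2.41 in *E1E2* and -2.23 in *E2* (-2.19 without replicate 2). *Il6ra* rose in *E1 S1S2* and *6KO1* (log2 fold changes 2.38 and 2.39, edgeR adjusted p = 8e-14 and 1.7e-14), and in *6KO1* this coincided with the highest level of *Il6*.

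Among 19 NF-kB and C/EBP regulator genes, all tested, 8 were higher in *E1E2*, 8 in *6KO2* and 3 in *E2* (7 without replicate 2). In *6KO1* 2 were higher, and in *E1E2 G9Gl* 2 were higher and 1 lower. Over all genes 5.51%, 15.3%, 2.9%, 20.6% and 16.8% were higher, in this order, and 8.41% were lower in *E1E2 G9Gl*. The counts in *6KO1* and *E1E2 G9Gl* were not above these shares. From *E1E2* to *E1E2 G9Gl* 8 fell and 0 rose, against 6.78% and 14.8% of all genes. The median log2 difference of the list was 0.84 in *E1E2* against -0.0022 for all tested genes, and -0.86 in that step against 0.0069. *Nfkbia* had 3805, 3025 and 3154 normalized counts in *E1E2* and 2909.8, 4404 and 2804 in *6KO2*, but 444, 473 and 442 in *E1E2 G9Gl*. *Ccl2* and *Cxcl1* also fell from *E1E2* to *E1E2 G9Gl*, but only to levels that overlapped WT. *Nfkbia* was below WT there by less than 2-fold (log2 fold change -0.95, edgeR adjusted p = 0.00767). *Nfkbie*, another inhibitor of the family, fell below WT in *E1E2 G9Gl* (log2 fold change -2.09, edgeR adjusted p = 6.7e-07). *Tnfaip3*, a deubiquitinase that restrains NF-kB signalling, went otherwise, at 2117, 2220.0 and 2262 in *E1E2 G9Gl* against 655 ± 61 in WT. *Cebpd*, of the same list, was also higher than WT in *E1E2 G9Gl* (log2 fold change 1.82, edgeR adjusted p = 0.0001). It was lower there than in *E1E2* (-1.25, edgeR adjusted p = 0.00097). Of 14 inflammatory cytokine and receptor genes tested, 9 were higher and 0 lower in *6KO2*, 7 and 1 in *6KO1*, 6 and 1 in *E1E2*, and 4 and 1 in *E1E2 G9Gl*, where 15.3%, 20.6%, 5.51% and 16.8% of all genes were higher. The median log2 fold change of this list was 1.29 in *6KO2* and 0.54 in *E1E2 G9Gl*, against 0.041 and 0.0089 for all tested genes. *Csf1*, the macrophage growth factor gene, was at 29516, 26538 and 27210 in *6KO1* against 5623 ± 847 in WT. *Tnfrsf1b* and *Tlr3* had their largest log2 fold changes against WT in *E1E2 G9Gl* (2.13 and 3.69). *Il1rn* was called lower than WT in *E1*, *E1 S1S2*, *E2* and *E1E2* and higher in *6KO1* (1.89) and *6KO2* (1.16).

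Of 13 type I interferon genes tested, 11 were higher in each of *6KO1*, *E1E2* and *E1E2 G9Gl*, 10 in each of *E1 S1S2* and *6KO2*, 5 in *E2* (8 without replicate 2) and 4 in *E1*, with 0 lower in any of them. Over all genes 20.6%, 5.51%, 16.8%, 6.65%, 15.3%, 2.9% and 2.27% were higher, in this order. The median log2 fold change of the interferon list was 2.37 in *E1E2* and 2.19 in *E1E2 G9Gl*, where that of all tested genes was -0.0022 and 0.0089. *Irf7* rose in *E1E2 G9Gl* (log2 fold change 5.56, edgeR adjusted p = 9.5e-13), where *Cxcl10* and *Ccl5* were at or below WT. Between *6KO1* and *6KO2* 10 of the 13 were higher in *6KO1* (9.77% of all genes), while neither *Cxcl10* nor *Ccl5* was called in that comparison. The IL-6 family and signalling list, with 11 genes tested, had 4 higher and 1 lower in *6KO2* (15.3% and 5.39% of all genes) and 3 higher and 2 lower in *6KO1* (20.6% and 10.2%). With 11 genes these *6KO1* counts are near the shares over all genes. *Lifr*, which encodes the receptor for leukaemia inhibitory factor, fell in *6KO1* (log2 fold change -4.39, edgeR adjusted p = 1.1e-16).

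Across the 24 libraries the genes fell into profiles of different shape, given as Pearson correlations of log2 CPM, which describe libraries of 8 shared conditions and not independent samples. *Ccl2* was most like *Cxcl1* (r = 0.972) and *Nod2* (0.971), the gene of an intracellular peptidoglycan sensor, among 12666 genes. *Cxcl1* was most like *Ccl2* and *Zc3h12a* (0.966), and *Ccl7* like *Ccl2* (0.927) and *Tlr2* (0.915). *Ccl5* and *Cxcl10* were each the nearest gene of the other (0.948), followed by *Vcan* (0.947) and *Zbtb43* (0.926). *Il6* was nearest to *Anks1b* (0.970) and *Csf1* (0.965). Its r was 0.85 with *Ccl7*, 0.72 with *Ccl2* and 0.30 with *Ccl5*. *Cxcl12* was nearest to *Dtna* (0.926) and *2310011J03Rik* (0.907), *Cxcl14* to *Angel2* (0.941) and *Qrsl1* (0.902), *Cx3cl1* to *Micall2* (0.938) and *Gypc* (0.933), and *Cxcl5* to *Filip1l* (0.965) and *Bid* (0.938).

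Markers of other cells moved along with some of these values. The fibroblast list was lowest in *6KO1*, at 92504 to 104826, where *Cxcl12* was lowest too, and highest in *E1E2 G9Gl*, at 212554 to 230956, where *Cxcl12* was highest. The list did not move as one in *E1E2 G9Gl*: 2 of its 9 tested genes were higher, such as *Col3a1* (log2 fold change 1.43), and 2 lower, *Dcn* (-4.14) and *Pdgfra* (-3.23). Over all genes 16.8% were higher and 8.41% lower there. The epithelial list of 6 markers summed to 191 to 241 in WT and rose to 2686 to 2779.9 in *E1E2 G9Gl* and 2267 to 2620.4 in *6KO2*. *Krt19* and *Krt8* were higher there, while *Epcam*, another marker of this list, fell (log2 fold changes -2.71 and -2.50). The endothelial list of 6 markers summed to 11.8 to 15.9 in WT, 121 to 142 in *6KO1*, 99.6 to 137 in *6KO2* and 66.9 to 87.2 in *E1E2 G9Gl*. The part of these markers in the chemokine and *Il6* values was not tested.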

How the data were processed

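RNA-seq was measured in 24 libraries of mouse embryonic fibroblasts. The authors deposited a table of raw counts per gene and repeat element; per the labels and the methods of the study, reads were trimmed with cutadapt 1.8.1, aligned to GRCm38 with STAR 2.5.2b and counted with TEtranscripts, which can share reads among similar copies. Rows of repeats entered neither the tests nor the library sizes.

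Counts of all genes were normalized by TMM, filtered with filterByExpr and fitted in 1 quasi-likelihood model with a coefficient per condition (edgeR 4.0.16, limma 3.58.1, R 4.3.3). From it 13 comparisons and 2 differences of effects were taken, with Benjamini-Hochberg adjustment over the 18565 genes tested. On counts simulated for *6KO1* against WT, edgeR called 197 of 200 changed genes and 2 others of 17537. Alternatives were DESeq2 1.42.0, RLE scaling, no filter, only the 6 libraries compared, a replicate block and leaving out each of the 24 libraries. Replicate numbers were not treated as pairs, since the methods of the study name no pairing. Of 39 same-number correlations 4 exceeded 0.1. Gene positions are from GENCODE M21 (GRCm38) and promoters from RefSeq. Tables and plots were made with Python 3.11.15. Depth was 24736829 to 37419071 counts per library (median 30218016).

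The genes are defined by their symbols, but this set, the lists and the tests were chosen with earlier results of these data known. The lists were named by this rule: up to 4 genes of each that were called in the most comparisons with WT, ties by the change in *6KO1*. Genes outside the rule (*Ccl6*, *Ccl8*, *Cxcl2* and other neighbours) were named for their position.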

Additional observations from a re-analysis of the deposited data

Results flagged for a closer look

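For 7 of the 10 genes the effect of losing *Suv39h1* and *Suv39h2* differed between the *E1* background and the *E1E2 G9Gl* background, by a test of the difference itself in edgeR. The difference of the effects, *E1* background minus *E1E2 G9Gl* background, was -2.18 for *Ccl2*, -4.20 for *Ccl5*, -3.23 for *Ccl7*, -4.07 for *Cxcl1*, -1.42 for *Cxcl10* and -1.98 for *Cx3cl1* on the log2 scale. It was 1.78 for *Cxcl12*, the only one of the 7 with a positive sign. Over the 24 fits that left out 1 library each, the call was kept in 17 for *Ccl2*, in 15 for *Cx3cl1* and in 23 for *Cxcl1*. The lines of each background are different clones, and clone and mutation cannot be told apart here. The *E1E2 G9Gl* libraries are also those of the fall from *E1E2*, so these differences are not independent of that fall.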

How the results depend on the processing

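Of 2024 alternative values for the 10 genes against WT, 1970 kept direction and side of the threshold, 47 lost and 2 gained the call, and 5 changed sign. The cause of these changes was not tested. Over the leave-one-out fits, 0 to 2 genes were called higher in *E1*, 5 to 8 in *E2* and 1 to 3 in *E1E2 G9Gl*. In these fits 1 to 2 were called lower in *E1 S1S2*, from *E1 S1S2* to *6KO1* and from *E1E2 G9Gl* to *6KO2*. From 3 to 7 Suv39h differences were called negative. The second gene lower in *E1 S1S2* was *Ccl7*, without *E2* replicate 2, and the second lower in the other steps was *Cxcl14*. Fits of only the 6 libraries compared gave 0 higher in *E2* and 1 higher from *E2* to *E1E2*. Over all genes such fits called 258 higher in *E1* instead of 421, 329 higher and 375 lower in *E2* instead of 538 and 596, and 257 higher from *E2* to *E1E2* instead of 430. With no filter, 2 were lower in *E1 S1S2*, from *E1 S1S2* to *6KO1* and from *E1E2 G9Gl* to *6KO2*, and 4 differences of the 4-OHT effect (*Ccl2*, *Ccl7*, *Cxcl1* and *Cxcl5*) were called negative. DESeq2 called 2 lower from *E1 S1S2* to *6KO1*.

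The sign changed in alternatives for 7 differences that were not called. Over the leave-one-out fits *Ccl2* in *E1 S1S2* ranged from -0.23 to 0.12 on the log2 scale, *Cx3cl1* from -0.078 to 0.19 in *E1 S1S2* and from -0.12 to 0.082 in *E1E2 G9Gl*, *Cxcl12* from -0.23 to 0.31 from *E2* to *E1E2*, and *Il6* from -0.086 to 0.15 from *E1E2* to *E1E2 G9Gl*. The 4-OHT difference ranged from -0.64 to 0.16 for *Ccl5* and from -0.93 to 0.084 for *Il6*. *Il6* from *E1E2* to *E1E2 G9Gl* was -0.0023 with no filter.

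With the replicate number as a block, *Il6* in that step was -4e-05, and *Ccl7* in *E2* lost its call (log2 fold change 1.37, edgeR adjusted p = 0.016). Same-number correlations ranged from -0.291 to 0.24, and 12 of 24 libraries were closest to their own number. These values do not decide whether libraries of the same number share a batch. Low counts limit *Il6* and *Cxcl5* in WT and *Cxcl14* in the mutants.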
